A study of Mus musculus with 10 samples.

Results

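The 9 genes described here are the mouse Notch receptors Notch1, Notch2, Notch3 and Notch4 and their transmembrane ligands of the Delta and Jagged families, Dll1, Dll3, Dll4, Jag1 and Jag2. Each was read by 1 probe whose annotation names that gene alone, and all 9 were found among the 18069 genes with such a probe. They were followed across 5 groups of 2 one-colour CodeLink Mouse Whole Genome arrays. The groups were EBs without and with Dox, named Dox(−) and Dox(+) EBs, and, as pancreatic sources, βTC6 cells, E15.5 pancreas and islets. EBs are embryoid bodies, here grown for 13 days from a mouse Ainv18 ES cell line carrying a doxycycline-inducible Pdx1-IRES-Ngn3 cassette at 1 targeted locus. Dox(+) EBs received doxycycline at 1 µg/ml from day 4 and Dox(−) EBs none, and both had been given activin A at 50 ng/ml, BMP4 at 50 ng/ml and bFGF at 10 ng/ml. βTC6 is a mouse insulinoma cell line, the islets are whole islet tissue of unlabelled age, and the E15.5 pancreas is whole embryonic tissue. The paper's text calls the islets adult, while a header in its supplement puts E15.5 beside them. The EB labels conflict, since the source entry gives Pdx1-IRES-Ngn3 as what doxycycline induces while another entry gives activated Notch4. The title of the series and the study's methods name Pdx1 and Ngn3, and the paper describes its Dox arrays as of the line with the Pdx1 and Ngn3 cassette.

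Notch receptors are single-pass membrane proteins that are cut when a ligand on a neighbouring cell pulls on them, which frees an intracellular domain that enters the nucleus and acts with the DNA-binding protein Rbpj on target genes such as the Hes and Hey repressors. In the developing pancreas this pathway is known to hold epithelial progenitors back from the endocrine fate, in which Neurog3 (Ngn3) acts, and Delta ligands mark cells that leave the progenitor state. Dll4, Notch4 and Jag1 are also known from blood vessels, and Notch3 from the mural cells around them.

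Levels are scaled intensities in units of each array's median probe, set to 1, so they compare 1 probe between arrays and not 1 gene with another. Between 65.98% and 74.34% of the probes of an array were above background, and replicate arrays correlated at 0.989 to 0.996 over probes. The probes named for the induced genes stayed low. Pdx1 did not exceed background on any of the 4 EB arrays, and Neurog3 read 0.458 and 0.520 without Dox and 0.447 and 0.557 with it. The Pdx1 probe was also low in βTC6 cells and islets, with means of 0.681 and 0.502. The paper stained Pdx1 and Ngn3 proteins in Dox-treated EBs of this line, grown by a different protocol. These low readings therefore do not show that the cassette was silent. The EBs, the pancreas, and βTC6 cells with islets were hybridised on slides from 3 distinct runs of slide numbers, so slide range and tissue cannot be told apart except between the EB groups and between βTC6 cells and islets. The tissues also differed in cell content. The islet arrays carried strong acinar signal, with a summed level of 1013 to 1235 over 6 acinar genes against 4.58 to 5.10 in βTC6 cells. Of these genes Amy2a5, Cel and Cela1 were saturated on both islet arrays, so the islet sums are lower limits. In bulk RNA, fewer cells of a type and less RNA per cell cannot be told apart.

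**Figure D1:**
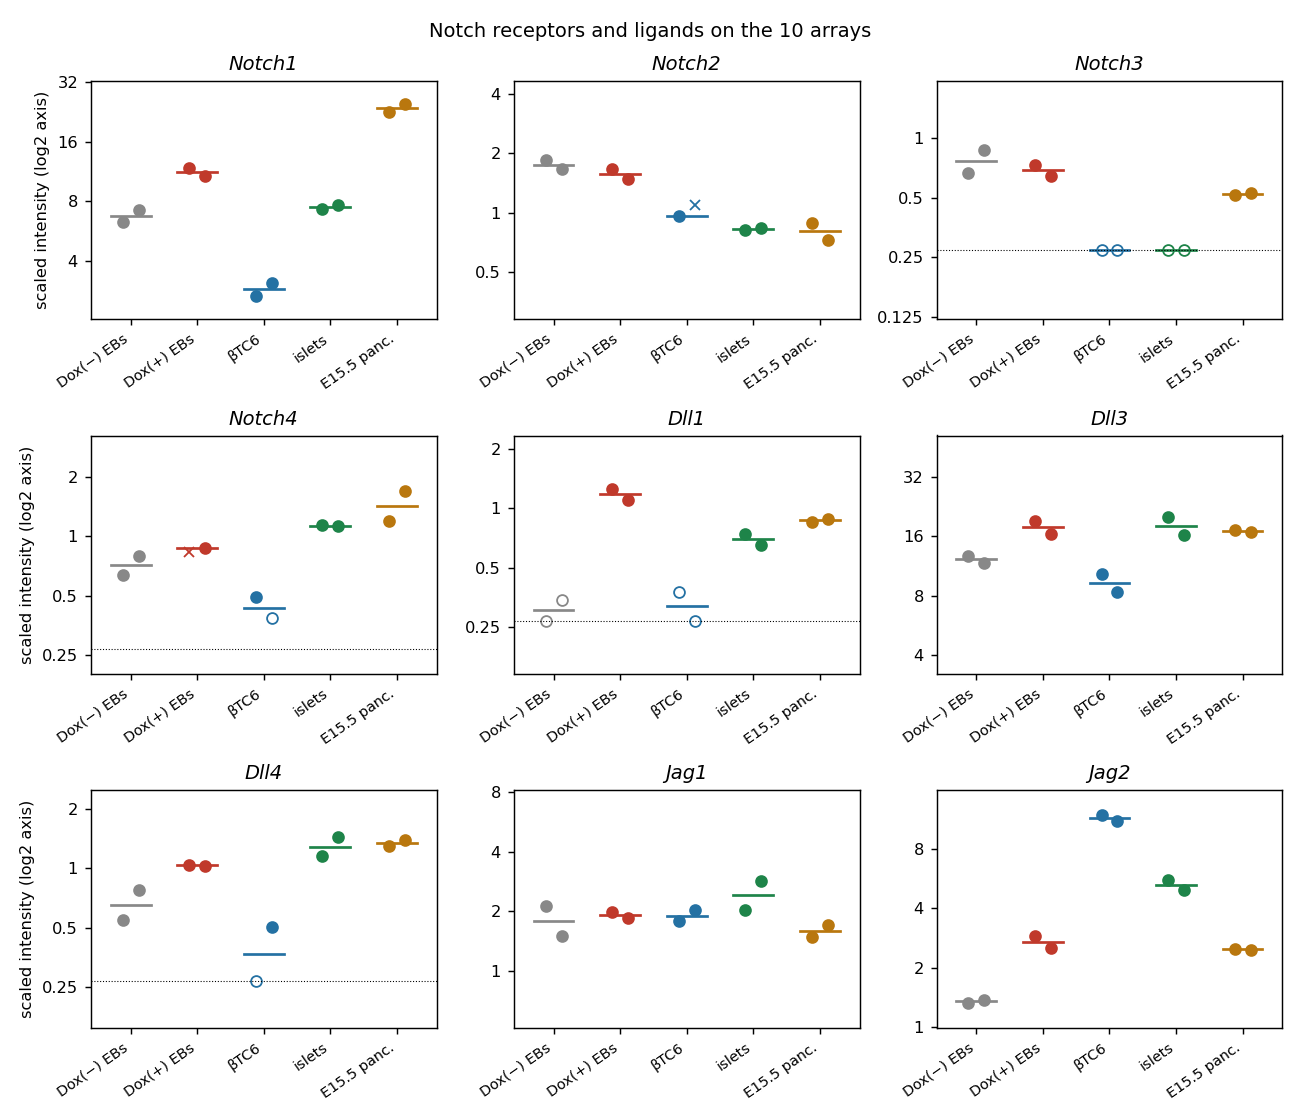
Scaled intensity of the 9 genes on each array (log2 axis spanning the same number of doublings in every panel), by group. Points are single arrays, open points were at background, crosses are contaminated spots left out of the means, bars are group means of log2 levels (n = 2 arrays, or 1 where a cross is shown), and a dotted line marks the 0.27 floor. Notch1 was highest in E15.5 pancreas, Jag2 in βTC6 cells, and Dll1 rose from background in Dox(+) EBs.

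Dox(+) EBs were first set against Dox(−) EBs, the comparison that asks what followed doxycycline in this line. No line without the cassette is among these arrays, so an effect of doxycycline itself was not tested. Dll1, Jag2, Notch1 and Dll3 rose and no receptor or ligand fell (limma, adjusted p under the 0.05 threshold). These 4 of 9 genes stand beside 20.7% of all 28109 tested probes called higher, and 43.2% called in either direction. The median log2 difference of the 9 genes was 0.53, against -0.03 over all tested probes. All 9 passed the filter on low signal.

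Dll1, a Delta ligand that signals to neighbouring cells, showed the largest log2 difference of the 9. It was at background on both Dox(−) arrays, with floored levels of 0.27 and 0.342, and read 1.26 and 1.10 on the Dox(+) arrays. The rise was at least 3.80-fold (log2 difference 1.95 ± 0.20 SE, adjusted p = 2.04e-05). The groups did not overlap. With the floor raised to 1 the log2 difference of Dll1 fell to 0.23, because the Dox(−) values then lie at the floor.

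Jag2, one of the Jagged ligands, read 1.33 and 1.38 without Dox and 2.90 and 2.52 with it. Both Dox(+) arrays lay above both Dox(−) arrays, a 1.99-fold difference (log2 0.99 ± 0.11 SE, adjusted p = 4.15e-05). Dll3, a divergent Delta protein known to act inside the cell that makes it and not as an activating ligand, read 12.7 and 11.7 without Dox and 19.1 and 16.4 with it. This was a smaller rise of 1.45-fold (log2 0.53 ± 0.13 SE, adjusted p = 0.00814). It did not pass without Dox(+) replicate 1 (adjusted p = 0.0803), without Dox(−) replicate 2 (0.0617) or with no filter on background (0.0504).

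Among the receptors only Notch1 passed the test. It read 6.26 and 7.19 in Dox(−) EBs against 11.8 and 10.7 in Dox(+) EBs, with no overlap, and rose 1.67-fold (log2 0.74 ± 0.11 SE, adjusted p = 0.000355). Notch2 read 1.85 and 1.66 without Dox and 1.66 and 1.48 with it, a log2 difference of -0.16 with a 95% interval from -0.50 to 0.17. Notch3 read 0.665 and 0.873 without Dox and 0.729 and 0.645 with it, and its log2 difference of -0.15 had an interval from -0.52 to 0.22. For both genes the intervals exclude a doubling in either direction.

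Notch4 is the gene that one of the conflicting EB labels names as induced. Without Dox it read 0.637 and 0.799, against 0.877 on Dox(+) replicate 2, while the spot on Dox(+) replicate 1 was marked contaminated and was left out. The log2 difference was 0.30 with an interval from -0.28 to 0.87 (adjusted p = 0.398), taken with 1 Dox(+) array and a spread from the other groups. With the contaminated spot kept at its reading of 0.839, an alternative chosen after seeing the data, it was 0.26 (adjusted p = 0.326). Where this probe lies on the transcript is not given in the sources used here, so it may or may not read a construct that holds part of the gene.

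Dll4 and Jag1 completed the ligands. Dll4, a ligand known from arterial endothelium, read 0.546 and 0.779 without Dox and 1.04 and 1.03 with it. Its groups did not overlap, but the log2 difference of 0.67 ± 0.27 SE missed the threshold (adjusted p = 0.0712). The test passed with the EB arrays fitted alone (0.0154), with normexp background correction together with quantile normalization (log2 0.42, 0.0354), with the replicate number as a block (0.0351) and without βTC6 replicate 1 (0.0121) or 2 (0.0127). Jag1 read 2.13 and 1.49 without Dox and 1.99 and 1.85 with it, so that the groups overlapped, and its interval ran from -0.33 to 0.55.

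Levels of marker lists for other cell types moved between the same arrays. Of all 28109 tested probes 5819 (20.7%) were called higher and 6335 lower, 43.2% in either direction. The summed level of 9 neuronal and neural progenitor genes went from 23.5 and 25.4 without Dox to 138.9 and 127 with it. Of the 10 listed genes 7 were called higher and 1 lower, with Dcx and Elavl3 at background without Dox. This list summed to 137.5 and 134.2 in the insulinoma line βTC6, so it does not tell neurons from endocrine cells. Of its progenitor genes Sox2 was higher and Sox1 lower with Dox, and Nes and Pax3 were not called. The summed endothelial level was 89.2 and 86.4 without Dox and 98.2 and 95.7 with it, with 4 of 14 genes higher and 2 lower, and Cdh5 at background without Dox. Mesenchymal genes went from 805 and 845 to 339 and 350.4, with 7 of 10 lower. Mural genes went from 94.2 and 110.5 to 42.9 and 36.8, with 5 of 10 lower and 2 higher. The duct and progenitor epithelium list went from sums of 330.0 and 318 to 137 and 122, with 5 of 8 genes lower and 0 higher, and Krt19 lay 8.26-fold lower with Dox. Acinar sums went from 3.53 and 3.64 to 20.4 and 24.9, with 4 of 7 genes higher and 0 lower. The islet endocrine list rose in 10 of its 10 measured genes, from sums of 6.92 and 6.86 to 546 and 470.1. The part of these shifts in the Notch values was not tested.

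**Figure D2:**
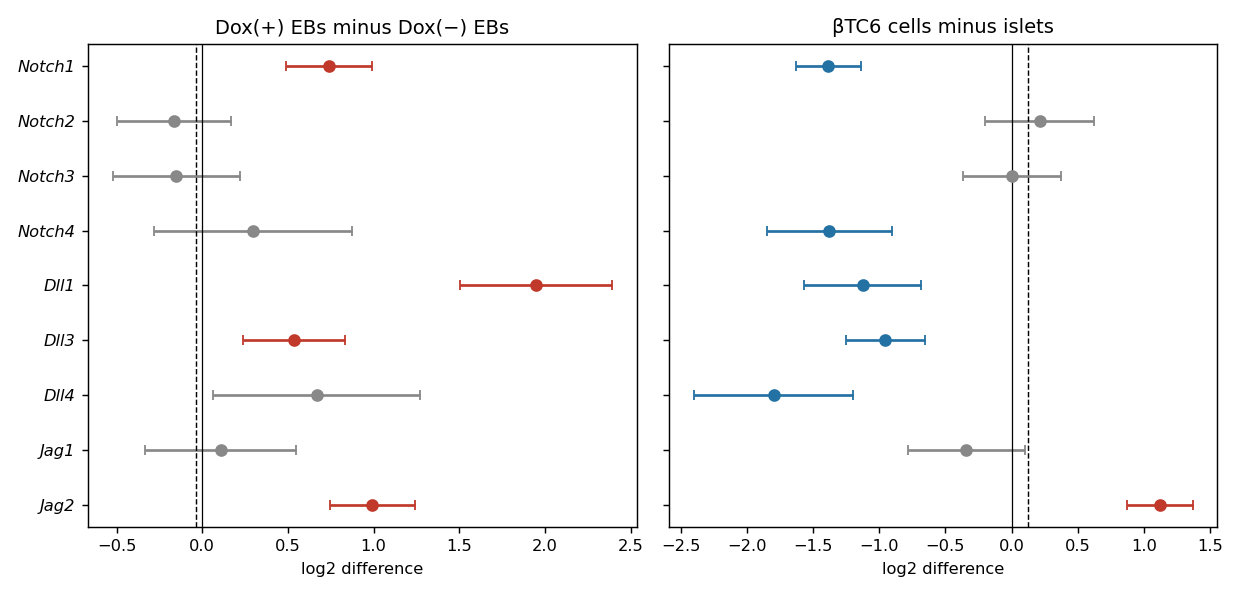
Log2 differences of the 9 genes from the limma fit, with 95% intervals, for Dox(+) minus Dox(−) EBs (left) and βTC6 cells minus islets (right). Red is called higher, blue called lower and grey not called, the solid line is 0 and the dashed line is the median of all 28109 tested probes. Dll1, Jag2, Notch1 and Dll3 rose with Dox, while in βTC6 cells Jag2 was higher and 5 other genes were lower.

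Promoter sequences were looked up for the genes called in the Dox comparison, because all of them rose in it. They are RefSeq reference sequence of GRCm38.p6, the 250 bases before the annotated start, shown for the 3 of these genes whose listed start is the outermost start of the gene (that of Jag2 lies inside it): Notch1 (chr2:26503823-26504072, minus strand), Dll1 (chr17:15376933-15377182, minus strand) and Dll3 (chr7:28301786-28302035, minus strand). Capitals mark E-boxes, CANNTG, the motif bound by basic helix-loop-helix proteins such as Neurog3, which reads the same class of letters on both strands.
Notch1: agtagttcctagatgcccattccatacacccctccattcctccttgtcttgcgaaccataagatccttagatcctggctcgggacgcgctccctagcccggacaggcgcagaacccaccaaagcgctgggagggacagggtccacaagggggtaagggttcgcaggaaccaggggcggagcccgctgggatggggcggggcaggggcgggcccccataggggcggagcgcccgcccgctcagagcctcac
Dll1: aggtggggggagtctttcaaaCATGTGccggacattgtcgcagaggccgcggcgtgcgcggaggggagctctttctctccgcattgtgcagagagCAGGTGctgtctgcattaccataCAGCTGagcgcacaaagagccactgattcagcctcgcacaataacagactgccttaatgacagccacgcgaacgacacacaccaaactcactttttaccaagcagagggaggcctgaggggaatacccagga
Dll3: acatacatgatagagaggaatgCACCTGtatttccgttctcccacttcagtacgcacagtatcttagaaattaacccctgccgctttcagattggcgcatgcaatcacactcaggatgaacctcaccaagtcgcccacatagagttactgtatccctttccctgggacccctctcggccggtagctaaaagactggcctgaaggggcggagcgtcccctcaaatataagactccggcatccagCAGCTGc
The Dll1 window held 3 E-boxes, the Dll3 window 2 and the Notch1 window 0. All 9 genes had an entry, and Dll1 had a second, inner start with 1 E-box. At least 1 E-box stood before Dll1, Dll3, Notch4 or Jag1, so in 4 of 9 genes, against 66.2% of 32851 promoter windows of the same length. The first share counts genes and the other counts windows. The listed starts of Notch3, Notch4 and Jag2 are not the outermost of their genes, so the Notch4 E-box lies before an inner start. The Rbpj core TGGGAA, searched on both strands, stood in 0 of the 9 genes' windows and in 21.6% of all windows. No window held both motifs, so none overlapped. A match describes letters only, and no match says only that these letters are not in this window.

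The rest of the pathway was read from a list of 45 other Notch genes, of which 40 had a probe naming them alone and 37 were tested. In Dox(+) EBs 18 of these were higher and 4 lower, beside 20.7% of all tested probes called higher and 43.2% called in either direction. Their median log2 difference was 0.31, against -0.03 over all probes. The count of genes called higher was 11 without Dox(−) replicate 1 and 11 without Dox(+) replicate 1. Genes called lower numbered 1 without Dox(−) replicate 2 and 1 without Dox(+) replicate 2.

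The 4 smallest adjusted p among the rises belonged to Dner, Hey1, Dtx1 and Mfng. Dner, a non-canonical ligand known from neurons, was at background on both Dox(−) arrays and read 11.2 and 10.6 with Dox, a rise of at least 39.8-fold (adjusted p = 2.39e-10). Dner was also above background in βTC6 cells, at 6.154 and 6.105, and in islets, at 4.09 and 4.12. The target repressor Hey1 went from 3.32 and 3.10 to 14.3 and 13.9, a 4.39-fold rise (adjusted p = 2.44e-07). Dtx1, a Deltex ubiquitin ligase, was at background on the 1 Dox(−) array that measured it and at 3.34 and 2.88 with Dox (adjusted p = 4.97e-07). Mfng, a fringe glycosyltransferase that modifies Notch receptors, went from 2.44 and 2.64 to 11.0 and 8.76, a 3.86-fold rise (adjusted p = 2.00e-06). The EB groups did not overlap for these 4 genes, which follows from their choice by smallest adjusted p and adds no support.

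Of the 9 genes with a probe that were listed as targets or their relatives, 8 were tested, and 5 rose and 0 fell. Over all tested probes 20.7% were called higher. Beside Hey1, the rises were of Hey2 (2.77-fold), Heyl (1.98-fold), the feedback inhibitor Nrarp (1.74-fold) and Hes6 (1.21-fold). Hes6 was listed as a Hes relative and not as a gene known to be activated by Notch. Hes1, the target best known in pancreatic progenitors, was at background on both arrays of each EB group, in βTC6 cells and in islets, and read 0.481 and 0.385 in E15.5 pancreas. Hes5 was above background on 1 array in all, at 0.538 in Dox(+) replicate 1, where the other Dox(+) spot was contaminated, and was not tested. Hes7 and Sox9 did not pass the test, with log2 differences of 0.31 and -0.04.

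The 4 genes called lower in Dox(+) EBs were Maml1, Adam17, Mib1 and Numb. Maml1, a coactivator bound by the Notch intracellular domain, went from 43.1 and 39.0 to 27.8 and 30.7 (log2 -0.49, adjusted p = 0.00212). Adam17, one of the membrane proteases, went from 2.84 and 3.23 to 2.19 and 1.75 (log2 -0.63, adjusted p = 0.0170). Mib1, the ubiquitin ligase that lets ligands pull on receptors, went from 0.958 and 1.10 to 0.788 and 0.619 (log2 -0.56, adjusted p = 0.0172). Numb, an endocytic inhibitor of Notch, went from 5.16 and 5.22 to 4.25 and 3.99 (log2 -0.33, adjusted p = 0.0417). Rbpj itself rose 1.28-fold (adjusted p = 0.0265).

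**Figure D3:**
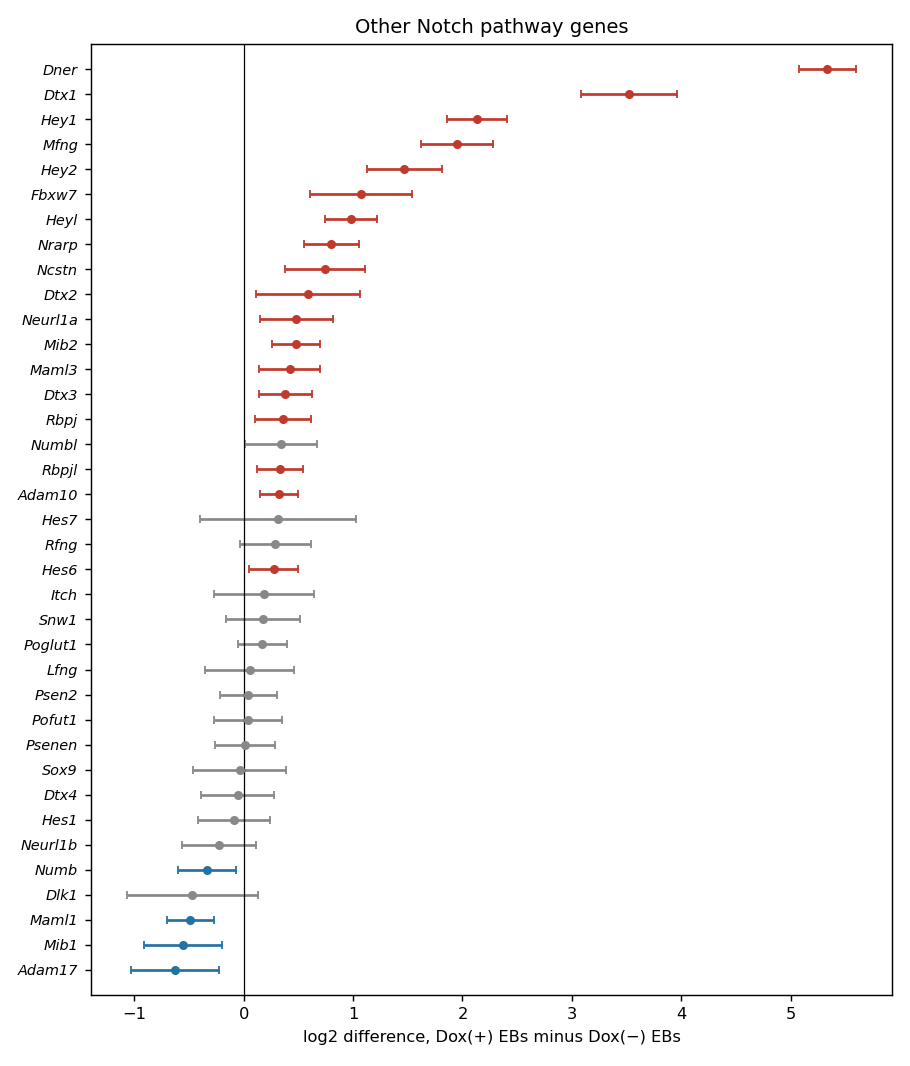
Log2 differences, Dox(+) EBs minus Dox(−) EBs, of the 37 tested genes of the other Notch pathway list, with 95% intervals of the limma fit. Red is called higher, blue called lower and grey not called. Dner, Dtx1, Hey1 and Mfng lie farthest to the right and Adam17 farthest to the left. The values of Dner and Dtx1 depend on the floor of 0.27.

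βTC6 cells and islets, whose slides come from 1 number range, differed in 6 of the 9 genes, beside 66.1% of all tested probes called in either direction. Jag2 was higher in βTC6 cells, and Notch1, Notch4, Dll1, Dll3 and Dll4 were lower. The median log2 difference of the 9 genes was -0.96, against 0.12 over all tested probes, and quantile normalization brought the median of all probes to 0 and also called 6 of the 9.

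Jag2 read 11.8 and 11.0 in βTC6 cells and 5.58 and 4.96 in islets, 2.17-fold higher in the cell line (log2 1.12 ± 0.11 SE, adjusted p = 6.03e-06). Notch1 read 2.65 and 3.09 in βTC6 cells and 7.31 and 7.65 in islets, 2.61-fold lower (log2 -1.38 ± 0.11 SE, adjusted p = 1.16e-06). Dll3 read 10.3 and 8.34 against 20.0 and 16.2, 1.94-fold lower (log2 -0.96 ± 0.13 SE, adjusted p = 8.57e-05). These 3 probes were above background on all 10 arrays, and the groups did not overlap for any of them.

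The other 3 calls were of genes at or near background in βTC6 cells. Dll4 was at background on βTC6 replicate 1 and at 0.506 on replicate 2, and read 1.15 and 1.43 in islets (log2 -1.80 ± 0.27 SE, adjusted p = 0.000152). Notch4 read 0.491 on βTC6 replicate 1, was at background with 0.385 on replicate 2, and read 1.14 and 1.12 in islets (log2 -1.38 ± 0.21 SE, adjusted p = 0.000243). Dll1 was at background on both βTC6 arrays and read 0.741 and 0.653 in islets, so that it was at least 2.03-fold higher in islets (adjusted p = 0.00048). With a floor of 1 the Notch4 and Dll1 calls were lost.

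Levels of marker lists for other cell types also differed between these arrays, beside 66.1% of all tested probes called in either direction. The endothelial list summed to 16.4 and 17.9 in βTC6 cells and to 95.1 and 91.2 in islets, with 11 of 14 genes lower and 0 higher in βTC6 cells, and the defining markers Pecam1, Cdh5 and Tie1 were at background on both βTC6 arrays. The mural list summed to 4.59 and 5.27 against 21.4 and 20.9, with Rgs5 at background in βTC6 cells. The mesenchymal list summed to 5.82 and 5.97 against 83.1 and 83.3, with Col1a1 and Col3a1 at background in βTC6 cells. The duct and progenitor epithelium list summed to 53.4 and 78.9 against 205 and 183, with 5 of 8 genes lower and 0 higher, and with Krt19 and Sox9 at background in βTC6 cells. Acinar genes were lower in 6 of 7 and higher in 1, and neuronal genes were higher in 6 of 10 and lower in 1. The part of these cell types in the Notch receptor and ligand differences was not tested.

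The other genes, Notch2, Notch3 and Jag1, were not called between βTC6 cells and islets. Notch3 was at background on all 4 arrays and has no fold, although it passed under normexp and quantile normalization (log2 -0.33, adjusted p = 0.0491). Notch2 read 0.965 on the 1 βTC6 array that measured it, the other spot being contaminated, and 0.824 and 0.844 in islets (log2 0.21, interval -0.20 to 0.62). Jag1 read 1.77 and 2.02 against 2.03 and 2.85, with a log2 difference of -0.34 and an interval from -0.78 to 0.10, and it passed without islet replicate 1 (log2 -0.59, adjusted p = 0.0455).

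In the other pathway genes 15 were higher and 12 lower in βTC6 cells than in islets, of 37 tested. Over all tested probes 66.1% were called in either direction. The median log2 difference of these genes was 0.18, against 0.12 over all probes. The genes listed under the transcription complex gave 4 higher and 1 lower of 5. The lower gene was Rbpjl, a relative of Rbpj counted with this complex. Its mean levels were 37.5 in E15.5 pancreas, 10.5 in islets and 5.86 in βTC6 cells. The part of the acinar signal of the islet arrays in that difference was not tested. The listed targets and their relatives were split, with Nrarp 2.35-fold and Hes6 2.40-fold higher in βTC6 cells, Heyl 3.88-fold lower and Hey2 at least 2.30-fold lower. Dlk1, a non-canonical ligand, read 52.6 and 116 in βTC6 cells and 1.36 and 1.21 in islets (log2 5.93, adjusted p = 1.41e-08).

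Dox(+) EBs were then set against the 3 pancreatic sources, which all carry the limit of slide range. These comparisons share the Dox(+) arrays. Against βTC6 cells 7 of 9 genes were higher and Jag2 lower, beside 62.9% of all tested probes called. Against islets 4 were higher and Jag2 lower, beside 68.0% called. Against E15.5 pancreas Notch2 was higher and Notch1 and Notch4 lower, beside 60.0% called. The 9-gene median log2 difference was 1.01 against βTC6 cells, -0.02 against islets and 0.12 against E15.5 pancreas, where all probes had medians of -0.11, 0.05 and 0.07.

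Jag2 in Dox(+) EBs lay 4.23-fold below βTC6 cells (adjusted p = 5.88e-08) and 1.95-fold below islets (adjusted p = 2.02e-05), and its difference from E15.5 pancreas, log2 0.12, had an interval from -0.13 to 0.37. Notch1 lay 3.91-fold above βTC6 cells (adjusted p = 9.31e-08), 1.50-fold above islets (adjusted p = 0.000839) and 2.11-fold below E15.5 pancreas (adjusted p = 1.26e-05). For Dll3 the differences from islets (-0.02, interval -0.32 to 0.27) and from E15.5 pancreas (0.05, interval -0.24 to 0.35) were under a doubling in either direction. Dll4, Notch4 and Dll3 lay 2.81-fold, 2.02-fold and 1.91-fold above βTC6 cells (adjusted p = 0.000657, 0.00639 and 0.000116), and the first 2 of these calls were lost with a floor of 1. The Notch4 call rests on 1 Dox(+) array, with a spread from the other groups. Dll4 was called lower than in E15.5 pancreas with a floor of 1 (log2 -0.37, adjusted p = 0.0342). Jag1 did not pass in any of the 3 comparisons, except against islets without islet replicate 1 (log2 -0.57, adjusted p = 0.0496).

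Dll1 in Dox(+) EBs was at least 3.43-fold above βTC6 cells (adjusted p = 1.12e-05) and 1.69-fold above islets (adjusted p = 0.00613), the latter with an adjusted p of 0.0516 without Dox(+) replicate 1. Its log2 difference from E15.5 pancreas, 0.44, missed the threshold (adjusted p = 0.0807), and passed with a floor of 1 (log2 0.23, adjusted p = 0.0337) and without βTC6 replicate 1 (0.04) or 2 (0.0392). Notch2 in Dox(+) EBs exceeded βTC6 cells (1.62-fold, adjusted p = 0.00741), islets (1.88-fold, adjusted p = 0.000393) and E15.5 pancreas (1.94-fold, adjusted p = 0.00036). The first of these tests had 1 measured βTC6 array, and took its spread from the other groups.

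Notch3, at background in βTC6 cells and islets, was at least 2.18-fold and at least 2.54-fold higher with Dox than in each of them (adjusted p = 3.68e-05 and 3.32e-05). These calls were lost with a floor of 1. Notch4 was 1.63-fold lower in Dox(+) EBs than in E15.5 pancreas (adjusted p = 0.0383), a call that rests on 1 Dox(+) array and was lost without E15.5 replicate 2 (adjusted p = 0.202), without islet replicate 1 (0.0633) or 2 (0.0631), without Dox(+) replicate 1 (0.0528), under quantile normalization (0.0518), with a floor of 1 (0.153) and with no filter on background (0.128).

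Islets and E15.5 pancreas compared tissue of unlabelled age, which the paper's text calls adult and its supplement heads as E15.5, with embryonic tissue. Of the 9 genes 4 were called, beside 65.0% of all probes. Notch1 read 7.31 and 7.65 in islets against 22.7 and 24.7 in the embryonic pancreas, 3.17-fold lower in islets (log2 -1.66 ± 0.11 SE, adjusted p = 2.95e-07). Notch3 did not exceed background in islets but read 0.513 and 0.524 in E15.5 pancreas, at least 1.92-fold higher in the pancreas (adjusted p = 0.000497), and this call was lost with a floor of 1.

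Jag2 was the ligand that differed most between these tissues, at 5.58 and 4.96 against 2.49 and 2.48, 2.12-fold higher in islets (adjusted p = 8.34e-06). Jag1 read 2.03 and 2.85 in islets but 1.48 and 1.70 in pancreas (log2 0.60 ± 0.20 SE, adjusted p = 0.0214). That call was lost without islet replicate 2 (0.201), without E15.5 replicate 1 (0.133), with a floor of 1 (0.0855) and with no filter on background (0.0894). The mural list summed to 21.4 and 20.9 in islets against 68.0 and 72.1 in pancreas, and the mesenchymal list to 83.1 and 83.3 against 543 and 542, and their part in the Notch3 difference was not tested.

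**Figure D4:**
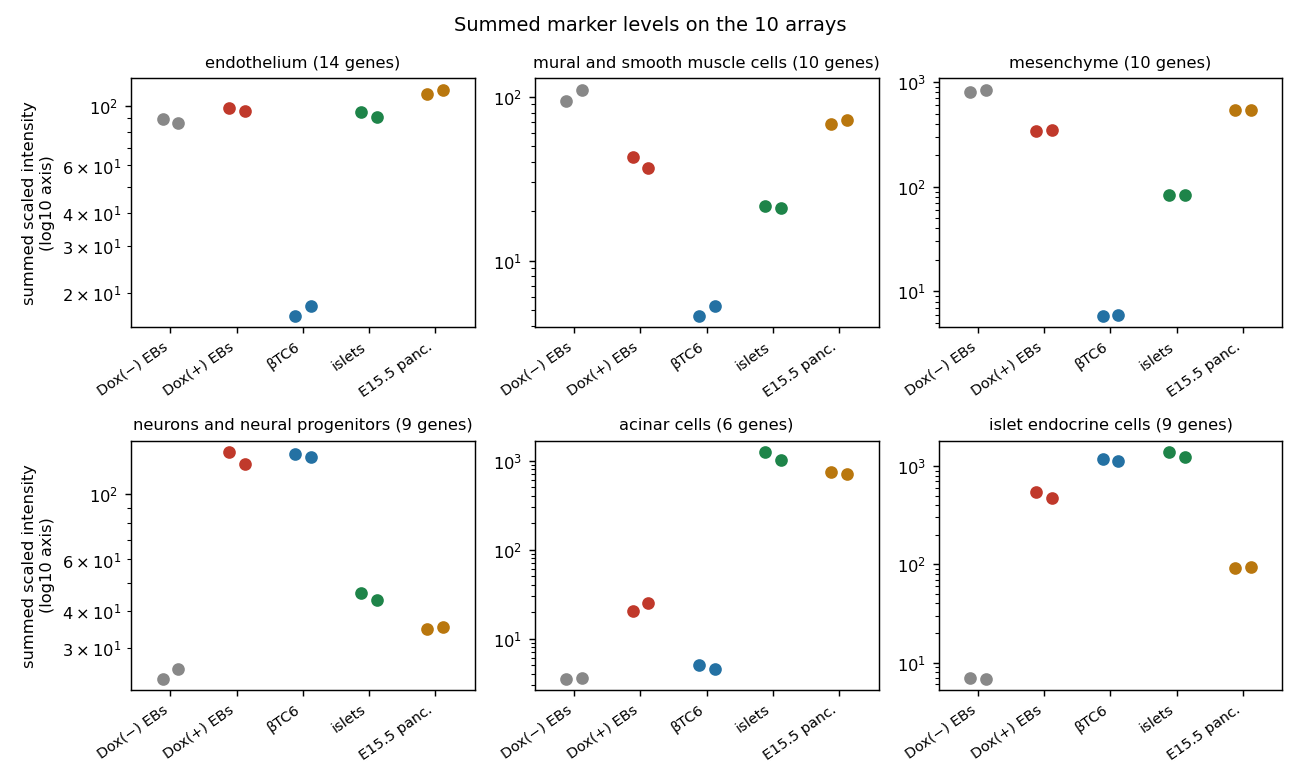
Summed scaled intensity of 6 marker lists on each array (log10 axis), by group, 2 points a group. Only genes measured on all 10 arrays enter a sum. Endothelial, mural and mesenchymal sums were lowest in βTC6 cells, and neuronal sums were higher in Dox(+) EBs and βTC6 cells than in the other groups.

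The levels of each gene were ordered over the 5 groups, with all 10 pairs of groups tested. The share of all tested probes called was 58.5% for Dox(−) EBs against E15.5 pancreas, 66.6% for Dox(−) EBs against βTC6 cells, 69.9% for Dox(−) EBs against islets and 65.6% for βTC6 cells against E15.5 pancreas. Notch1 fell from E15.5 pancreas at a mean of 23.7 to Dox(+) EBs at 11.2, islets at 7.48, Dox(−) EBs at 6.71 and βTC6 cells at 2.86. Its range was 8.27-fold, and of its neighbours only islets and Dox(−) EBs did not differ beyond their spread (adjusted p = 0.240), and they did differ under quantile normalization alone (0.0408) or with normexp (0.0373). Jag2 ran in another order, from βTC6 cells at 11.4 to islets at 5.26, Dox(+) EBs at 2.70, E15.5 pancreas at 2.48 and Dox(−) EBs at 1.36, over 8.42-fold. Only Dox(+) EBs and E15.5 pancreas did not differ in that order (adjusted p = 0.378).

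The remaining genes had narrower ranges. Notch2 was above the other groups in Dox(−) and Dox(+) EBs, at 1.75 and 1.57, and βTC6 cells, islets and E15.5 pancreas lay at 0.965, 0.834 and 0.806, with no neighbours differing among these 3. Notch3 was at 0.762 in Dox(−) EBs, 0.686 in Dox(+) EBs and 0.519 in E15.5 pancreas, above the other groups at background, and the neighbours among these 3 did not differ, although Dox(−) EBs were 1.47-fold above E15.5 pancreas (adjusted p = 0.0148). The step down to βTC6 cells at background (adjusted p = 0.000474) was lost with a floor of 1. Dox(+) EBs against E15.5 pancreas did pass for Notch3 under eBayes without trend and robust weights (adjusted p = 0.0303) and without Dox(−) replicate 1 (0.0299) or 2 (0.0291).

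Notch4 and Dll4 shared an order, E15.5 pancreas, islets, Dox(+) EBs, Dox(−) EBs and βTC6 cells. The means ran from 1.43 to 0.435 for Notch4 and from 1.34 to 0.370 for Dll4. In both, the only neighbours that differed were Dox(−) EBs and βTC6 cells (adjusted p = 0.0127 for Notch4 and 0.0207 for Dll4). Both calls were lost with a floor of 1, with no filter on background (0.0657 and 0.0966) and without Dox(−) replicate 2 (0.0925 and 0.162). The Notch4 call was also lost without βTC6 replicate 2 (0.0717), and the Dll4 call without βTC6 replicate 1 (0.173). Dll1 was highest in Dox(+) EBs at 1.17, followed by E15.5 pancreas at 0.866 and islets at 0.695, with βTC6 cells and Dox(−) EBs at background. Its only neighbours that differed were islets and βTC6 cells (adjusted p = 0.00048).

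Dll3 fell into 3 levels, with islets, Dox(+) EBs and E15.5 pancreas at 18.0, 17.7 and 17.1, Dox(−) EBs at 12.2 and βTC6 cells at 9.28. The steps to Dox(−) EBs (adjusted p = 0.0101) and to βTC6 cells (adjusted p = 0.0224) passed the test. The first step was lost without Dox(−) replicate 2 (0.0689) or E15.5 replicate 1 (0.0596), and the second without Dox(−) replicate 1 (0.121) or βTC6 replicate 2 (0.158). Both were lost with a floor of 1 (0.0525 and 0.0836) and with no filter on background (0.0529 and 0.0831). Jag1 varied least of the 9, by 1.52-fold from islets at 2.40 to E15.5 pancreas at 1.59, and no neighbours in its order differed.

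Genes with the most similar pattern were found by Pearson's r of log2 levels over the arrays, among 14892 genes tested and measured on all 10. The arrays form 5 pairs that share tissue and slide range, so r is a description. Notch1 was most like Dok4 (r = 0.984), Nfatc1 (0.978) and Foxs1 (0.970). Notch2 was most like Ppig (0.989), Grin3b (0.986) and Colec11 (0.984) over the 9 arrays that measured it. Notch3 was most like Adgra2 (0.991), Fzd2 (0.989) and Tpsb2 (0.988), with 4 of its 10 values at the floor. Notch4 was most like Trim16 (0.968), Taf4b (0.952) and Pdk2 (0.952) over 9 arrays.

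Among the ligands, Dll1 was most like Hhex (r = 0.956), Gm9899 (0.953) and D630004K10Rik (0.951), and Dll3 most like Serping1 (0.964), Zhx2 (0.955) and Elk3 (0.950). Dll4 was most like Syce1 (0.969), Rasl12 (0.959) and Mmrn2 (0.955). Jag2 was most like Napa (0.995), Cfap36 (0.994) and Hagh (0.993). Jag1, whose groups hardly differed, had the lowest values, with Gm12404 at 0.902, Gpr1 at 0.877 and Stum at 0.873.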

How the data were processed

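Total RNA was measured on 10 one-colour arrays, 2 a group. The deposited intensity values are those the authors took from CodeLink Expression Analysis, version 4.1.0.29054, namely the mean of each spot less its local median background, in units of the median of the 34967 discovery probes on the array. The GeneSpring 7 step of the study's methods was not repeated. The genome build is not given in the sources used here. Here, masked, contaminated and irregular spots were set missing, saturated spots kept, levels floored at 0.27 and log2 transformed. A scaled level near the floor understates a fold. limma 3.58.1 in R 4.3.3 fitted 1 mean per group over all 10 arrays (5 residual degrees of freedom, trend and robust eBayes) to 28109 probes, each above background on both arrays in 1 group or more, with Benjamini-Hochberg adjustment in each contrast. The fold is given as "at least" if neither array of the lower group exceeded background. Its base is then, on each array, the higher of the lowest signal above background and the probe's floored value.

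Probes were named from the deposited annotation: 21615 have 1 symbol, 681 several and 12671 none. The genes named are the 9 receptors and ligands, Pdx1 and Neurog3, the 4 pathway genes with the smallest adjusted p in each direction of the Dox comparison, the 3 genes most similar to each of the 9, and marker lists as sums, counts and defining markers. Further pathway and marker genes were named after their values were seen. The genes, lists and tests were chosen with earlier results of these data known. The labels call the arrays biological replicates but name no separate cultures or animals, so p measures the spread between these arrays. On simulated data of 26555 probes the Dox test called 10% of the probes given a log2 change of 0.5, 70% of those given 1, 62% of those given -1, 92% of those given 2, and 4 of 26355 unchanged ones. Each change was given to only 50 simulated probes, whereas 43.2% of the real probes were called in this comparison. With so few changed probes the adjustment is stricter, so these shares do not give the power of the real test. The number of arrays and a net signal of 1.66 to 2.63 times the background at the median probe limit the precision.

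Results were recomputed with quantile normalization, alone or after normexp at an offset of 50, with floors of 0.1 and 1, with no background filter or one that asks for signal on all arrays, with eBayes lacking trend and robust weights, with a block for the replicate number, on the EB arrays alone, and without each array in turn. An analysis that kept spots marked contaminated or irregular was chosen after seeing the data. Other steps used Python 3.11.15 with numpy 2.4.6, pandas 2.3.3 and, for plots, matplotlib 3.10.9.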

Additional observations from a re-analysis of the deposited data

How the results depend on the processing

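Over 993 single-gene results under an alternative, 956 kept their direction and their side of the threshold, 22 lost a call, 15 gained one and 0 changed sign among calls. Pairs of groups tested only for the order of the groups are not in this count. Changed calls between neighbours in those pairs are given with the order. Requiring signal above background on all arrays left Notch1, Dll3, Jag1 and Jag2 to be tested, so the number of receptors and ligands called became 3 for βTC6 cells against islets, 3 for Dox(+) EBs against βTC6 cells, 2 against islets and 1 against E15.5 pancreas. A floor of 1, which sets low probes equal, gave 5 for Dox(+) EBs against βTC6 cells, 2 for islets against E15.5 pancreas and 1 other pathway gene lower with Dox, which was 2 with no filter on background. Leaving out each array gave 3 to 5 of the 9 genes called with Dox, and 11 to 18 other pathway genes higher and 1 to 5 lower. The replicate numbers did not pair the arrays (correlations of deviations between groups -0.0687 to 0.0628). With the replicate number as a block 5 of the 9 genes were called with Dox in place of 4, 17 pathway genes were higher and 4 lower. A mean over all probes of a gene could not differ, since each of the 9 genes has 1 probe. The deposited scaling put the median log2 difference of all probes at 0.22 for βTC6 cells against E15.5 pancreas and 0.12 against islets, and quantile normalization at 0.05 and 0, with 63.8% and 53.2% of calls higher in the first.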
